A study of Mus musculus with 10 samples.

Results

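Glycolytic enzymes, lactate and glucose transporters, targets of the hypoxia-inducible factors (HIFs) and the core HIF regulators were followed in mouse brain endothelium. The 34 genes were chosen by symbol from the 26264 genes of the deposited expression table: 17 enzymes and enzyme regulators, 2 transporters, 11 HIF targets and 4 HIF regulators. RNA came from C57BL6 mouse brain cells sorted by fluorescence for CD31, an endothelial surface marker. One group of 5 mice ate control diet and the other group of 5 ate PLX5622, at 1200 ppm for 1 month, with 3 males and 2 females in each. PLX5622 inhibits CSF1R, the receptor that microglia need to survive, and the series asks what microglial depletion does to the brain vasculature. The diet reaches the whole animal, so loss of microglia and any other action of the compound cannot be told apart here. The age of the mice was not given in the sources used here.

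Glycolysis splits glucose to pyruvate in the cytosol, and lactate dehydrogenase then turns pyruvate into lactate. Endothelial cells rely on this route for much of their ATP, and brain endothelium also carries glucose onward to the tissue. HIFs are pairs of an alpha subunit (HIF-1α from Hif1a, HIF-2α from Epas1) and the beta subunit ARNT. In the presence of oxygen, prolyl hydroxylases of the Egln family mark the alpha subunits and the VHL protein has them degraded. When oxygen is short, the stabilised pairs bind a core DNA sequence and raise the transcription of many glycolytic and stress genes, so HIF activity is set largely at the protein level and is not read directly from Hif1a or Epas1 transcripts.

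Of the genes followed here, Ddit4 and Pkm had the smallest unadjusted p-values between diets. Bnip3 was only among the 4 HIF targets with the smallest. Ankrd37 and P4ha1 are targets that differed between single libraries, as described further on. Promoter windows of these 5 genes, picked among those that hold the HIF core motif, are shown. They are RefSeq windows on GRCm38.p6, from 250 bases before to 50 bases after the transcription start, written 5′ to 3′ on the strand of the gene. The windows are Ddit4 at chr10:59951721-59952020 on the minus strand, Bnip3 at chr7:138909457-138909756 on the minus strand, Ankrd37 at chr8:45999801-46000100 on the minus strand, P4ha1 at chr10:59323046-59323345 on the plus strand and Pkm at chr9:59656977-59657276 on the plus strand. Capitals mark the HIF core motif ACGTG, or CACGT where the motif lies on the opposite strand.
Ddit4: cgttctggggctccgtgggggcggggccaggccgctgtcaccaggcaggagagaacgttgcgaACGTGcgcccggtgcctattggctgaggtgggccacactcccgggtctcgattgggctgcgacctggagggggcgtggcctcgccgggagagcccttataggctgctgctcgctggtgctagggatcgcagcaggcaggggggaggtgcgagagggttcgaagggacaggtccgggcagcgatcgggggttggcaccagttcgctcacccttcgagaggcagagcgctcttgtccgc
Bnip3: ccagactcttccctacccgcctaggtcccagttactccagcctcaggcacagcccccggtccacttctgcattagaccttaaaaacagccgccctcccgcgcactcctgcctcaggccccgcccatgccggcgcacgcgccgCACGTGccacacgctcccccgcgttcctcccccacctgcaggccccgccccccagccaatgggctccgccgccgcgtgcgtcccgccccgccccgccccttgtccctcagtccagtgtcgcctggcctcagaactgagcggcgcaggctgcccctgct
Ankrd37: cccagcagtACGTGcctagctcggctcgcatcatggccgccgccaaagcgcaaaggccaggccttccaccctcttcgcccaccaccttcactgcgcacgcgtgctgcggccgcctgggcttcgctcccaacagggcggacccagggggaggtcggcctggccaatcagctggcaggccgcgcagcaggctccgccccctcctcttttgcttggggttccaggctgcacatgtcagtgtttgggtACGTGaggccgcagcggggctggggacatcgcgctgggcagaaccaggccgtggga
P4ha1: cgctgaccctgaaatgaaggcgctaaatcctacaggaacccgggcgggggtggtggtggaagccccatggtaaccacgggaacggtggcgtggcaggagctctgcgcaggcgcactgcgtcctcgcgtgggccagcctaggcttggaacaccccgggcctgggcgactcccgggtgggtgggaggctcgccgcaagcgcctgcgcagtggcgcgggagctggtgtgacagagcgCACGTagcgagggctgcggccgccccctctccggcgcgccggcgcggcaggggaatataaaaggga
Pkm: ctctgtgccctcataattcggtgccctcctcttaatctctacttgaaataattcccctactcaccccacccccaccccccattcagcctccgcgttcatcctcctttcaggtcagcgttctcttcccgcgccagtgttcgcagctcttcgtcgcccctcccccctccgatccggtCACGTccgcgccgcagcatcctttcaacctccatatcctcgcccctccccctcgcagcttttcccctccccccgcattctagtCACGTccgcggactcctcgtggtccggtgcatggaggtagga

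The single match in Ddit4 began at position -187 from the start (position 0), and the Bnip3 match was the palindrome CACGTG, which holds ACGTG on both strands, from position -108. Ankrd37 had matches from -241 and -6, P4ha1 from -16, and Pkm from -75 and 8. Pkm has a second window, which holds no ACGTG, and the window with more matches is shown. The 5 windows all hold the motif by choice: those of Tpi1 and Pfkp hold none. Windows were given for 30 of the 34 genes; Slc2a3, Bnip3l, Ndrg1 and Epas1 had none. ACGTG, searched on both strands, lay in 24 of 46 windows (52.2%) against 19.6% of all 32851 windows. The related core GCGTG lay in 50% against 32.4%. By gene, ACGTG was found for 8 of 9 HIF targets, 10 of 17 enzymes, 1 of 1 transporter (Slc16a3) and 1 of 3 regulators. The list was picked for HIF targets and glycolytic enzymes, and some genes have several windows, some of them overlapping. All windows were not matched to those of the members in base content, so the shares are a description only. These matches describe letters in the windows and were not tested as binding sites.

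Expression was measured as TPM, a transcript abundance that divides reads by gene length and is scaled to the same total in every library, which lets the levels of different genes be compared. Depth per library, from reads recovered out of the deposited values, was 26.4 to 61.5 megareads (median 31.2), and control male 2 was the deepest. The 8 endothelial markers fixed for the check (among them Pecam1, Cldn5 and Cdh5) summed to 18451 to 19789 TPM on control diet and 17363 to 19186 on PLX5622, and none of the 8 passed the diet test. The 9 microglial markers used (among them Csf1r and P2ry12) summed to 0.631 to 111.3 TPM on control diet and 0.416 to 1.17 on PLX5622, where 4 of them (Cx3cr1, C1qc, Trem2 and Siglech) were at 0 in every library, and none of the 9 passed the filter on low values. Control female 1 was unlike the other controls, at 0.631 TPM for the microglial sum against 48.03 to 111.3, so the diet values without it are given as well. Pericyte markers (8 genes) summed to 331 to 489 and 369 to 520.1 TPM, smooth muscle markers (5 genes) to 151.7 to 239.7 and 129.9 to 187.6, and 12 genes induced by tissue dissociation to 48592 to 55716 and 52400 to 59189, with none of these genes called. Of the 5 red cell markers, the 4 haemoglobin genes were listed at 0, and Alas2, an enzyme of haem synthesis, ran from 34.2 to 84.5 TPM on control diet and from 41.7 to 116 on PLX5622. In bulk libraries, fewer cells of a type and less RNA per cell cannot be told apart.

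Brain endothelium on control diet held nearly the whole glycolytic route at high level. Gapdh, which oxidises glyceraldehyde 3-phosphate, averaged 602 ± 32.9 TPM (SD, n = 5) and ranked 234th of 26264 genes by mean over all libraries. Ldha, which makes lactate, averaged 504 ± 39.1 TPM, Aldoa, the aldolase, 492 ± 19.8, and Pkm, pyruvate kinase, 459 ± 9.67. Over control libraries Ldha ran from 445 to 555 TPM and overlapped its neighbours in this order, while Aldoa, from 475 to 516, and Pkm, from 444 to 469.9, lay apart. Eno1, the enolase, averaged 355 ± 31.04 TPM, Gpi1, the glucose phosphate isomerase, 303 ± 11.0 and Tpi1, the triose phosphate isomerase, 193 ± 6.06. Lower levels were those of Pgk1, phosphoglycerate kinase, at 75.0 ± 6.78 TPM, Pgam1, the phosphoglycerate mutase, at 37.5 ± 1.49, Pfkfb3, which makes the activator of phosphofructokinase, at 16.3 ± 1.03, and Pdk1, a kinase that restrains pyruvate dehydrogenase, at 12.4 ± 1.96. Several of these enzymes have near-identical processed copies elsewhere in the genome (Gapdh, Pgk1, Pgam1, Eno1, Aldoa, Ldha, Tpi1), and how reads matching several places were counted was not given in the sources used here, so their absolute levels are uncertain.

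**Figure D1:**
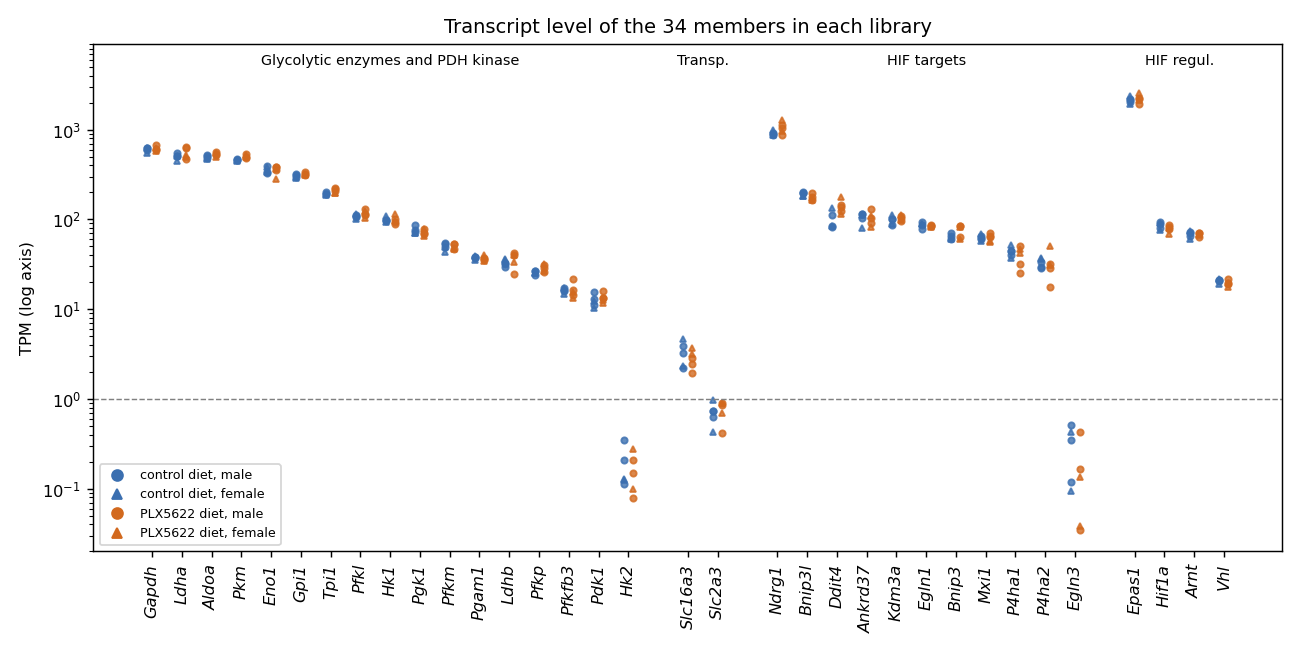
Level of each of the 34 genes in every library, in TPM on a log axis, grouped by role; points are single libraries coloured by diet. Epas1 was the highest, with a mean of 2173 TPM over the 10 libraries, and Hk2, Egln3 and Slc2a3 lay below 1 TPM.

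Where sequence-related enzymes share a step, 1 form carried most of the transcripts. Hexokinase was almost only Hk1 (98.5 ± 5.77 TPM), which made up 99.8% of Hk1 and Hk2 together on both diets. Phosphofructokinase was mixed: on control diet the liver-type Pfkl supplied 59.0 ± 2.02% of transcripts (SD, n = 5), the muscle-type Pfkm 27.1 ± 2.22% and the platelet-type Pfkp 13.9 ± 0.586%. On PLX5622 the shares were 59.7 ± 1.17%, 25.6 ± 1.71% and 14.7 ± 0.736%, and each pair of ranges overlapped between the diets. Ldha made up 93.8 ± 0.837% of lactate dehydrogenase transcripts on control diet and 93.7 ± 1.57% on PLX5622, with Ldhb, the form typical of oxidative tissue, as the rest. Among HIF alpha subunits, Epas1 made up 96.1 ± 0.146% and 96.5 ± 0.525%. The Epas1 to Hif1a ratio of TPM ran from 23.5 to 27.8 in 9 libraries and was 36.7 in PLX5622 female 2. Egln1 supplied 99.7% of the Egln1 and Egln3 transcripts on control diet and 99.8% on PLX5622, and P4ha1 supplied 57.1 ± 4.07% of P4ha1 and P4ha2 together on control diet and 55.3 ± 6.63% on PLX5622.

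**Figure D2:**
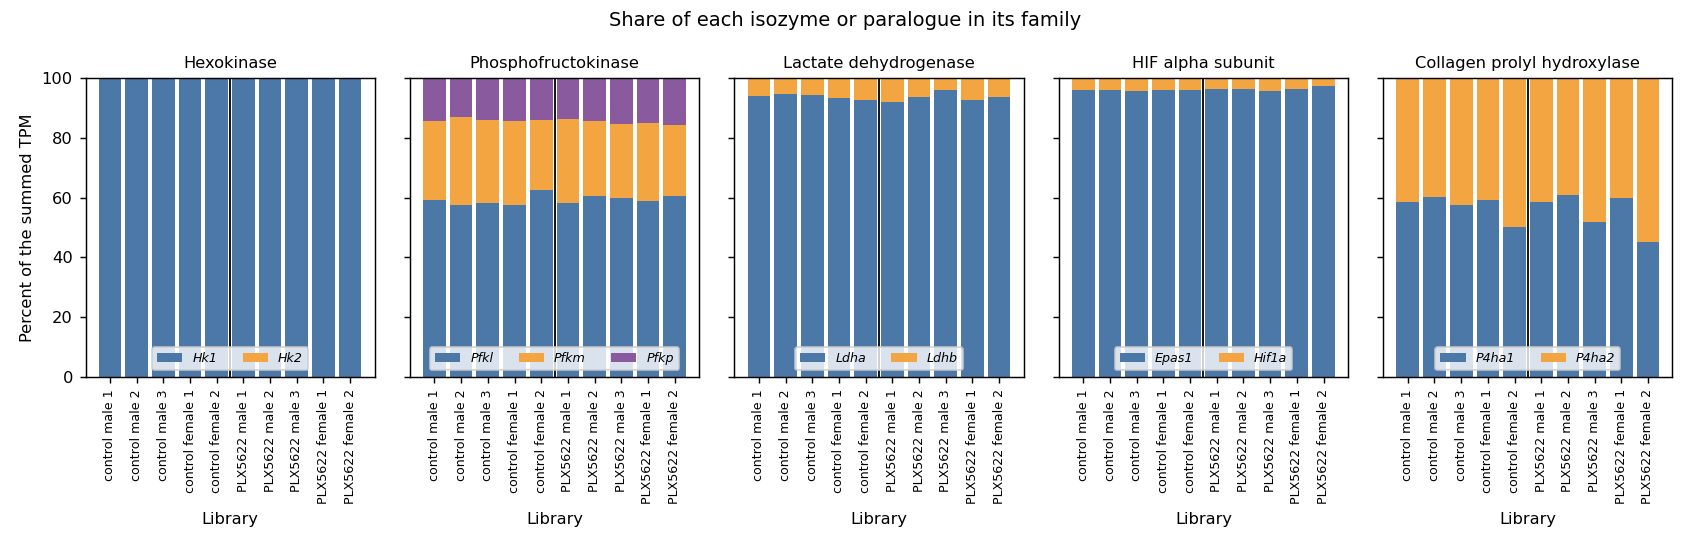
Share of TPM, in percent, taken by each form within sets of sequence-related genes. Each stacked bar is a single library, ordered by diet. Hk1, Ldha and Epas1 took over 92% of their sets in every library, while 3 phosphofructokinases and 2 prolyl 4-hydroxylase subunits shared theirs.

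No glycolysis or HIF gene passed the test between diets. Of 31 genes tested, 0 were called at an adjusted p under 0.05 by limma on log2(TPM + 1) with sex in the model, where 17 of 12751 genes overall (0.133%) were called. limma-voom on the recovered reads also called 0 of the 31, against 0.149% of all genes. At an unadjusted p under 0.05 there were 6 of 31 (19.4%), against 8.31% of all genes: Pkm, Tpi1, Aldoa, Pfkp and Ddit4 with the higher mean on PLX5622, and Bnip3l with the lower. That count depended on single libraries: it was 2 of 31 (6.45%) without control male 1, where 6.56% of all genes passed, 3 without PLX5622 female 2, 4 without control female 1, control female 2 or PLX5622 male 3, 1 in males only and 0 in females only. The other alternatives gave 5 to 8. The smallest adjusted p was 0.369, for Ddit4. A log2 fold change above 0 was found for 17 of 31 (54.8%; 44.3% of all genes), with a median of 0.0035 beside -0.0156 for all genes. Libraries of the diets did not overlap for 1 of the 31, Pkm (3.23%, against 1.8% of all genes). The authors' deposited table called 1 of the 34, Ddit4, where it called 116 of 19474 genes (0.596%). Without control female 1 the limma count was also 0.

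**Figure D3:**
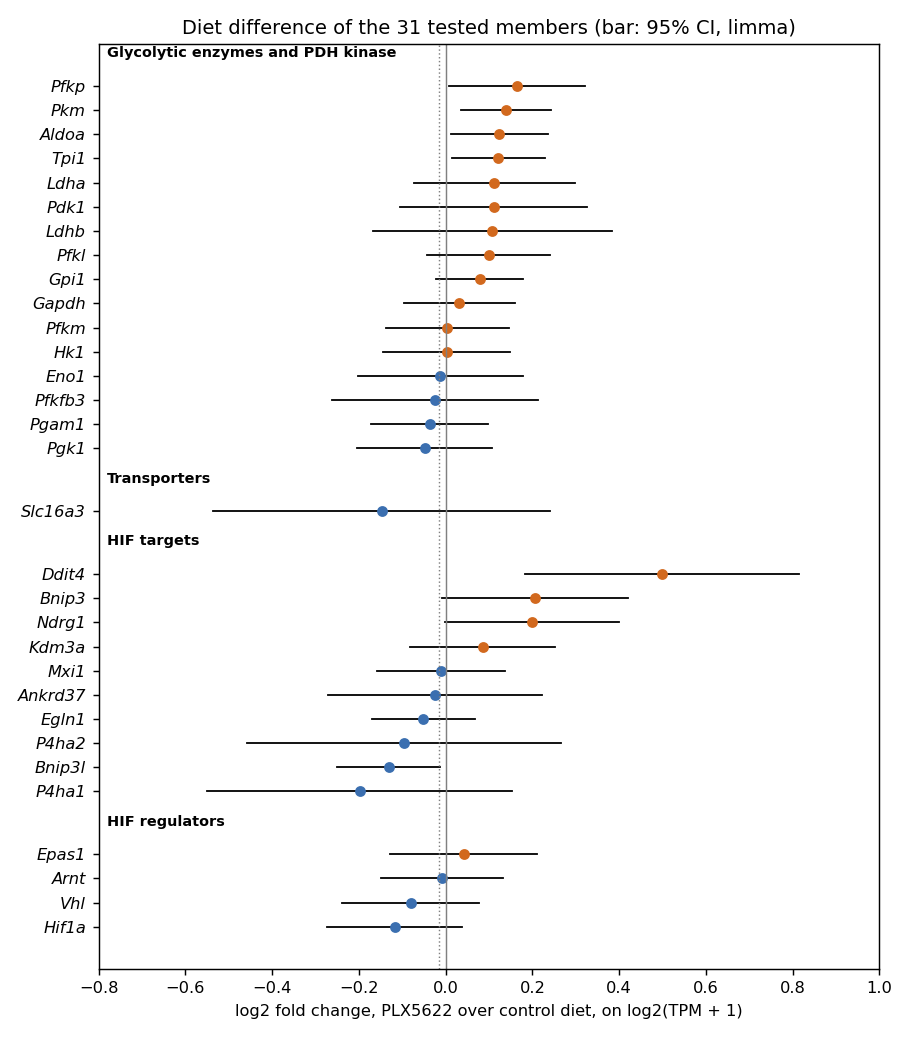
Log2 fold change of each tested gene, PLX5622 minus control, on the log2(TPM + 1) scale, with 95% intervals from limma, grouped by role. Ddit4 at 0.50 had the widest distance from 0, and no gene passed the adjusted threshold of 0.05.

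Among glycolytic enzymes, 12 of 16 tested had a log2 fold change above 0 (75%, against 44.3% of all genes), with a median of 0.09. At an unadjusted p under 0.05 there were 4 (25%, against 8.31% of all genes), and none was called. Over the alternative settings, 10 to 14 of 16 were above 0 with medians of 0.06 to 0.11, and the share of all genes above 0 ran from 41.3% to 51.4%. The number of enzymes at an unadjusted p under 0.05 was 1 without control male 1, 2 without either control female, PLX5622 male 3 or PLX5622 female 2, and 0 in either sex alone. Without control female 1, 12 of 16 were above 0, with a median of 0.07. The enzymes follow in the order of the pathway.

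Gpi1, at the second step, stood at 300.1, 309.7 and 317 TPM in control males, 288 and 298 in control females and, on PLX5622, 310.2, 336 and 320.2 in males and 314 and 318 in females. The groups overlapped, with 3 PLX5622 libraries above every control and the other 2 within the control range. Its log2 fold change was 0.08 ± 0.05 (SE), with a 95% interval of -0.02 to 0.18 and a limma adjusted p of 0.725. Pfkp, a phosphofructokinase at the committed step, stood at 26.3, 24.1 and 26.3 TPM in control males, 25.5 and 25.5 in control females and, on PLX5622, 26.2, 30.6 and 28.8 in males and 26.4 and 31.8 in females. Only PLX5622 male 1 fell within the control range. The log2 fold change was 0.16 ± 0.07 (0.01 to 0.32, limma adjusted p = 0.578), and its sister forms Pfkl and Pfkm differed by 0.10 ± 0.07 and 0.00 ± 0.07.

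Aldoa, which splits the sugar bisphosphate, stood at 481, 516 and 511 TPM in control males, 477 and 475 in control females and, on PLX5622, 523, 536 and 569.9 in males and 502 and 552 in females. PLX5622 female 1 lay below 2 of the control males, and the other 4 PLX5622 libraries lay above every control. The log2 fold change was 0.12 ± 0.05 (0.01 to 0.23, limma adjusted p = 0.544). Tpi1, which interconverts the products of aldolase, stood at 190.0, 202 and 192 TPM in control males, 193 and 186 in control females and, on PLX5622, 221, 206 and 226 in males and 198 and 199 in females. Both PLX5622 females lay below control male 2, and the 3 PLX5622 males lay above all controls. Its log2 fold change was 0.12 ± 0.05 (0.01 to 0.23, limma adjusted p = 0.527).

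Gapdh stood at 600.1, 624 and 619.6 TPM in control males, 623 and 546 in control females and, on PLX5622, 607, 596 and 677 in males and 627 and 572 in females. Its diets overlapped almost fully, with a log2 fold change of 0.03 ± 0.06 (-0.10 to 0.16, limma adjusted p = 0.951). Pkm, at the last step of glycolysis, stood at 469.9, 461 and 462 TPM in control males, 444 and 460.2 in control females and, on PLX5622, 493, 489 and 530.5 in males and 501 and 517 in females. Every PLX5622 library lay above every control library, and means were 459 ± 9.67 and 506 ± 17.4 TPM (SD over 5 mice a diet). Even so, its log2 fold change of 0.14 ± 0.05 (0.04 to 0.24) had a limma adjusted p of 0.417, and it was 0.13 without control female 1. Ldha stood at 507, 555 and 507 TPM in control males, 506 and 445 in control females and, on PLX5622, 466, 635 and 630.4 in males and 515 and 493 in females. Only PLX5622 males 2 and 3 lay above all controls, and the log2 fold change was 0.11 ± 0.09 (-0.07 to 0.30, limma adjusted p = 0.807). It was 0.19 without PLX5622 male 1, but 0.07 without PLX5622 male 2 or male 3. The Gapdh value was 0.0010 without PLX5622 male 3. Without control female 1, log2 fold changes were 0.07 for Gpi1, 0.16 for Pfkp, 0.12 for Aldoa, 0.14 for Tpi1, 0.06 for Gapdh and 0.14 for Ldha.

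The other 9 tested enzymes (Hk1, Pfkl, Pfkm, Pfkfb3, Pgk1, Pgam1, Eno1, Ldhb and Pdk1) had log2 fold changes of -0.05 to 0.11, with limma adjusted p-values of 0.755 or more. Pgk1, Pgam1 and Eno1, the steps between Gapdh and Pkm, were at -0.05 ± 0.07, -0.04 ± 0.06 and -0.01 ± 0.09, so the enzymes did not all lie on 1 side of 0 along the stretch from Gapdh to Pkm.

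**Figure D4:**
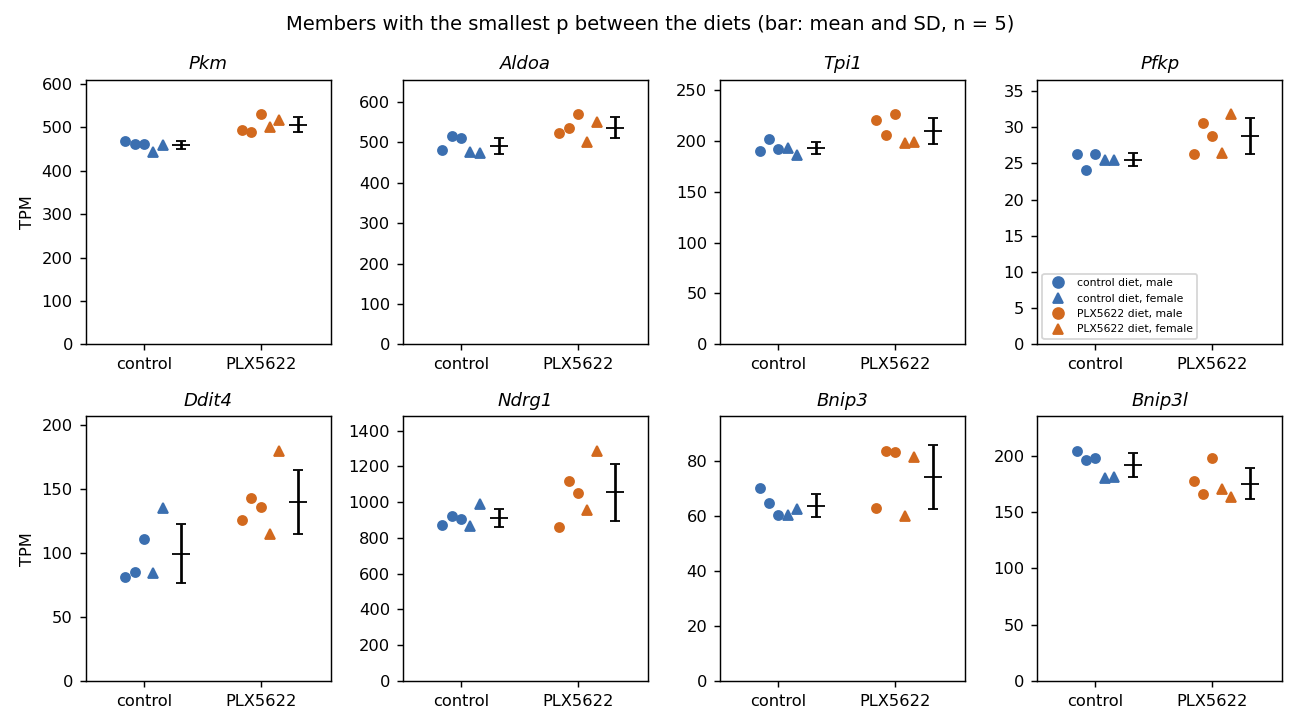
TPM in every library by diet for enzymes and HIF targets with the smallest p-values; points are single libraries, lines are means and bars are SD (5 libraries a diet). Pkm shows no overlap between the diets, from 444 to 469.9 TPM on control diet and from 489 to 530.5 on PLX5622, and the other panels overlap.

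Of the transporters, Slc16a3 (MCT4), which exports lactate, was low, and its diets overlapped. It stood at 2.21, 3.92 and 3.25 TPM in control males, 2.35 and 4.69 in control females and, on PLX5622, 2.47, 1.96 and 2.84 in males and 3.67 and 3.17 in females. The log2 fold change was -0.15 ± 0.18 (-0.54 to 0.24, limma adjusted p = 0.911), and it was -0.29 without control female 1 and -0.05 without control female 2. Slc2a3 (GLUT3), the glucose carrier known from neurons, stood at 0.741, 0.632 and 0.739 TPM in control males, 0.427 and 0.966 in control females and, on PLX5622, 0.415, 0.902 and 0.856 in males and 0.688 and 0.903 in females. It was below the filter, and 182 reads over the controls against 151 over the PLX5622 libraries gave a ratio per depth of 1.09 (95% counting interval 0.876 to 1.37). For scale, Slc2a1 (GLUT1), the main glucose carrier of the blood-brain barrier, averaged 4972 ± 353 TPM on control diet and 5530 ± 503 on PLX5622 (log2 fold change 0.15 ± 0.08, limma adjusted p = 0.696). Hk2, the hexokinase that HIF-1 induces in many cells, was also below the filter, with 78 reads against 45 and a ratio of 0.761 (0.515 to 1.11). Intervals of pooled reads cover counting error only.

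Of the 10 HIF targets tested, 4 had a log2 fold change above 0 (40%, against 44.3% of all genes), with a median of -0.02. At an unadjusted p under 0.05 there were 2 (20%, against 8.31% of all genes), 1 in each direction, and none was called. Over the alternative settings the number above 0 ran from 4 to 6 and the median from -0.04 to 0.05, so the sign of the median depended on the setting. Without control female 1 it was 5 of 10, with a median of 0.01.

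Ddit4 (REDD1), an inhibitor of mTORC1 induced by hypoxia and by other stresses, stood at 81.3, 85.4 and 111 TPM in control males, 84.6 and 135 in control females and, on PLX5622, 126, 143 and 136 in males and 115 and 179.7 in females. Control female 2, at 135 TPM, lay among the PLX5622 libraries, and the other controls lay below all of them. Means were 99.5 ± 23.3 TPM for control and 139.8 ± 24.7 for PLX5622 (SD over 5 mice a diet). Its log2 fold change of 0.50 ± 0.14 (0.18 to 0.81, 1.41-fold) did not pass limma over all genes (adjusted p = 0.369). The authors' deposited table gives it a log2 fold change of 0.51 ± 0.14 with an adjusted p of 0.0352. limma-voom on recovered reads gave 0.53 with an adjusted p of 0.213, and limma without control female 1 gave 0.41 with 0.481. The summed dissociation genes overlapped between the diets, but 4 of the 12 had an unadjusted p under 0.05 in limma, against 8.31% of all genes. These 4 were looked up after their values were seen. Egr1, an immediate early gene, averaged 4879 ± 640 TPM on control diet and 6042 ± 307 on PLX5622 (log2 fold change 0.32 ± 0.10, limma adjusted p = 0.388). Its diets did not overlap, as for 1.8% of all genes. Ier2, another immediate early gene, was at 0.16 ± 0.07 (limma adjusted p = 0.592). The heat shock genes Hspa1a and Hspa1b are near-identical copies whose reads may be split. They averaged 683 ± 365 and 460.5 ± 341 TPM on control diet and 311 ± 36.7 and 122.5 ± 15.4 on PLX5622. Their log2 fold changes were -0.96 ± 0.31 and -1.51 ± 0.46 (limma adjusted p = 0.402 and 0.382), opposite in sign to those of Egr1 and Ier2. The other dissociation genes, among them Fos and Jun, had log2 fold changes of -0.01 to 0.12. Their limma unadjusted p-values were 0.133 to 0.893. The part of these genes in the Ddit4 difference was not tested.

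Ndrg1, a stress-response gene, was the most abundant target and ranked 137th of all genes. It stood at 875, 922 and 904 TPM in control males, 866 and 989.6 in control females and, on PLX5622, 863, 1117 and 1050 in males and 957 and 1287 in females. PLX5622 male 1 was the lowest of all libraries and PLX5622 female 2 the highest, so the PLX5622 group enclosed the control group. The log2 fold change was 0.20 ± 0.09 with a limma adjusted p of 0.609, and it was 0.12 without PLX5622 female 2. Bnip3, a mitophagy receptor and a HIF-1 target, stood at 70.4, 65.0 and 60.3 TPM in control males, 60.4 and 62.8 in control females and, on PLX5622, 63.1, 83.8 and 83.4 in males and 60.05 and 81.5 in females. Here 3 PLX5622 libraries lay above every control, 1 among them and 1 just below them (0.21 ± 0.10, -0.01 to 0.42, limma adjusted p = 0.619). Bnip3l (NIX), its close relative in mitophagy, stood at 204.5, 196 and 198 TPM in control males, 181 and 181 in control females and, on PLX5622, 178, 166 and 198 in males and 171 and 164 in females. PLX5622 male 3 lay within the control range and the other 4 below it, with a log2 fold change of -0.13 ± 0.05 (-0.25 to -0.01, limma adjusted p = 0.546). The point estimates of these related receptors thus had opposite signs, and neither passed the test. Leaving out control female 1 gave 0.16 for Ndrg1, 0.20 for Bnip3 and -0.13 for Bnip3l.

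P4ha1 and P4ha2, the catalytic subunits that hydroxylate prolines in collagen, are given after their values were seen, because they spread most among the 10 tested targets on PLX5622. P4ha1 stood at 40.6, 44.7 and 44.8 TPM in control males, 52.3 and 37.1 in control females and, on PLX5622, 25.0, 50.03 and 31.6 in males and 46.7 and 42.1 in females (log2 fold change -0.20 ± 0.16, limma adjusted p = 0.832). P4ha2 stood at 28.7, 29.5 and 33.2 TPM in control males, 36.1 and 37.0 in control females and, on PLX5622, 17.6, 32.2 and 29.1 in males and 31.4 and 51.1 in females (-0.10 ± 0.17, limma adjusted p = 0.945). PLX5622 male 1 was the lowest library for both genes, and without it the P4ha2 value turned to 0.06 and that of P4ha1 was -0.06. P4ha1 was at -0.33 without PLX5622 male 2, and P4ha2 at -0.24 without PLX5622 female 2. They were at -0.16 and -0.14 without control female 1. Ankrd37, an ankyrin repeat protein induced by HIF-1, Egln1 (PHD2), the main HIF prolyl hydroxylase, Kdm3a, a histone demethylase, and Mxi1, an antagonist of MYC, averaged 105, 87.6, 98.0 and 62.7 TPM on control diet. Their log2 fold changes were -0.05 to 0.09, with limma adjusted p-values of 0.854 or more. Egln3 (PHD3), which is strongly HIF-inducible in many cells, was below the filter, with 1 to 20 reads in a library. It had 56 reads over the controls against 21 over the PLX5622 libraries, a ratio per depth of 0.495 with a 95% counting interval of 0.285 to 0.83. That interval leaves out differences between mice. Its libraries overlapped, from 3 to 20 reads on control diet and from 1 to 11 on PLX5622. The authors' DESeq2 table gives it a log2 fold change of -0.92 ± 0.80 with an adjusted p of 0.996.

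The 4 HIF regulators showed no called difference, and 1 of 4 had a log2 fold change above 0 (25%, against 44.3% of all genes). Epas1, which encodes the HIF-2α subunit typical of endothelium, ranked 40th of all genes. It stood at 2145, 2044 and 2188 TPM in control males, 1952 and 2370 in control females and, on PLX5622, 2174, 2239 and 1950 in males and 2134 and 2531 in females. Both the lowest and the highest library were on PLX5622, and the log2 fold change was 0.04 ± 0.08 (-0.13 to 0.21, limma adjusted p = 0.951). Hif1a stood at 87.8, 81.2 and 93.1 TPM in control males, 75.7 and 92.1 in control females and, on PLX5622, 78.2, 85.5 and 82.9 in males and 80.1 and 68.9 in females (-0.12 ± 0.07, -0.27 to 0.04, limma adjusted p = 0.735). PLX5622 female 2 was the lowest, and the other 4 PLX5622 libraries lay within the control range. The Hif1a value was -0.07 without control female 2 and -0.08 without PLX5622 female 2. Arnt, the shared beta subunit, stood at 70.1, 66.1 and 71.7 TPM in control males, 60.6 and 74.1 in control females and, on PLX5622, 71.3, 70.4 and 63.5 in males and 68.0 and 66.9 in females (-0.01 ± 0.06, limma adjusted p = 0.990). Its values on PLX5622 lay wholly inside the control range, and its sign turned under median-of-ratios and quantile scaling. Vhl, the recognition subunit of the ligase that marks hydroxylated HIF alpha, stood at 21.0, 21.2 and 20.6 TPM in control males, 21.6 and 19.0 in control females and, on PLX5622, 21.9, 19.5 and 18.9 in males and 17.6 and 19.8 in females (-0.08 ± 0.07, limma adjusted p = 0.857), and the diets overlapped. Without control female 1 the values were -0.15 for Hif1a, -0.0123 for Epas1, -0.055 for Arnt and -0.05 for Vhl, so that of Epas1 changed sign.

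The median spread of HIF targets was wider on PLX5622 than on control diet, and so was that of the enzymes, as a description without a test. The coefficient of variation over 5 libraries had a median of 8.48% on control diet and 15.6% on PLX5622 for the 10 targets. It was larger on PLX5622 for 7 of them. It was smaller on PLX5622 for Ddit4 (23.4% on control diet, 17.7% on PLX5622), Egln1 (5.99% and 1.49%) and Kdm3a (10.4% and 6.2%). For the 16 enzymes the medians were 5.65% and 8.28% (larger for 12), and for all tested genes 10.8% and 11.1% (larger for 52.9%). Averaged over the 10 targets, log2 levels with each gene's mean subtracted were -0.18 in PLX5622 male 1, -0.07 in PLX5622 female 1, 0.06 in male 3, 0.12 in male 2 and 0.19 in female 2, while the controls lay between -0.05 and 0.02. PLX5622 female 2 was the highest of the 10 libraries for Ndrg1, P4ha2 and Ddit4, level with control female 2 for Kdm3a (110.7 TPM each), and the lowest for Bnip3l and Mxi1. PLX5622 male 1 was the lowest for Ndrg1, P4ha1 and P4ha2. The same average over the 16 enzymes was 0.11 in PLX5622 male 2 and between -0.06 and 0.04 in the other libraries.

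**Figure D5:**
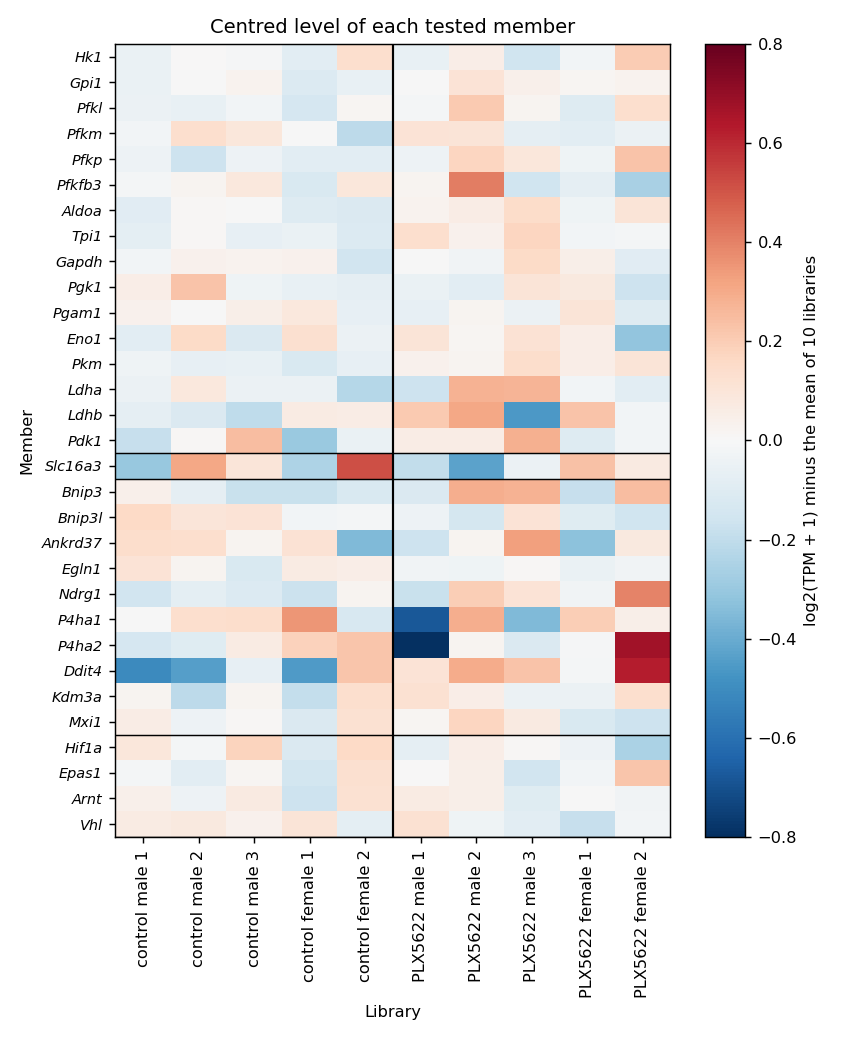
Log2(TPM + 1) of each tested gene less that gene's mean over the 10 libraries, shown as colour, with genes in rows by role and libraries in columns by diet. Averaged over the 10 HIF targets, these values run from -0.18 to 0.19 in the PLX5622 libraries and from -0.05 to 0.02 in the controls.

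Sex made no called difference to these genes: 0 of 31 passed limma, beside 0.0627% of all genes. At an unadjusted p under 0.05 there were 2 of 31, beside 5.8% of all genes. P4ha2 averaged 28.4 ± 5.57 TPM in 6 males and 38.9 ± 8.49 in 4 females (log2 fold change 0.44 ± 0.17, female minus male, limma adjusted p = 0.827), and the sexes overlapped. Bnip3l was at -0.12 ± 0.06 with the same adjusted p. Whether the diet difference varied with sex was tested as an interaction in limma, and 0 of 31 were called (0 also with voom) or had an unadjusted p under 0.05, beside 2.45% of all genes at the unadjusted level. With 2 females per diet the intervals were wide: for Ddit4 the interaction was -0.13 with a 95% interval of -0.80 to 0.55.

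Other genes of these pathways also gave no calls. Of 45 further genes of glucose metabolism, 33 were tested and 0 were called by limma, by voom or in the authors' deposited table. In limma 6 of the 33 had an unadjusted p under 0.05 (18.2%, against 8.31% of all genes), 1 higher and 5 lower. Libraries of the diets did not overlap for 2 of the 33 (6.06%, against 1.8% of all genes). Of 39 further HIF pathway and hypoxia genes, 35 were tested and 0 were called by limma, by voom or in that table. In limma 3 of the 35 had an unadjusted p under 0.05 (8.57%), 1 higher and 2 lower, and for 0 did the diets not overlap. Median log2 fold changes of these lists were -0.03 and 0.03. Of 17 listed copies and antisense partners of the enzymes and regulators, 8 were in the table, and Gapdhs, the sperm form, was the highest at 2.94 ± 0.882 TPM on control diet, far below Gapdh. The libraries were not stranded, so reads from overlapping antisense genes cannot be told apart.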

How the data were processed

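The 10 libraries of polyadenylated RNA, made without strand information, came from sorted CD31+ brain cells, per the labels' protocols. Per the submitters' processing notes, the genome build was mm39 and the tools were STAR 2.7.10a (an aligner), featureCounts from Subread 2.0.1 (a read counter) and, under R 4.1.0, DESeq2 1.32.0. The authors deposited TPM per library for 26264 genes. The authors also deposited a DESeq2 table with a mean normalized count (treated as a score), log2 fold change, standard error, test statistic (a score) and p-values for 19474 genes, and its model formula was not given in the sources used here.

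Diet was tested by limma (3.58.1, under R 4.3.3), with a variance trend, on log2 values of TPM plus a pseudocount of 1, and sex entered the model. A gene needed a TPM of 1 or more in 5 of the 10 libraries, which left 12751 genes and 31 of the 34 members. P-values were two-sided and were adjusted by Benjamini-Hochberg over all tested genes (threshold 0.05). The pseudocount makes fold changes of weakly expressed genes too small. Whole reads were recovered from TPM and the authors' mean counts: 100.0% of values were whole within 0.05 reads, the mean counts were met to a relative error of 7.3e-15, and 26.4 to 61.5 megareads per library resulted. These reads were tested with limma-voom as an alternative. Titles call the replicates biological. The fit was also run on simulated data with changes put in, and the outcome is not given here. How often differences as small as those of most members would be called was not tested. Alternatives changed the pseudocount, filter, scaling, covariates, weights, samples and tool, and left out each library in turn.

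Values in every library are given for members called in either source, the 5 enzymes and 4 HIF targets with the smallest unadjusted p, the 2 most abundant of each, both transporters and the 4 regulators. P4ha1, P4ha2 and the genes with printed promoters were picked after values were seen. The values of 1 marker are not reported here. The members and lists were chosen with earlier results of these data known. Promoter windows are RefSeq's on GRCm38.p6, another build than that of the files, so no other coordinates are given. Python 3.11.15, numpy 2.4.6, pandas 2.3.3 and scipy 1.17.1 were used.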

Additional observations from a re-analysis of the deposited data

Results flagged for a closer look

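In groups of 5 libraries, a library was singled out where its gap to the nearest of the others exceeded 0.71 of the group's range. This held in 2 of 68 groups tested, where chance gives about 1 in 20, or 3.4. Eno1 was low in PLX5622 female 2, at 283 TPM, with the other PLX5622 libraries at 356 to 382 TPM. Ankrd37 was low in control female 2, at 80.6 TPM, with the other controls at 105 to 114 TPM. The cause was not tested in either case.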

How the results depend on the processing

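Under 23 alternatives, the count of members called between diets was 0 in each except the authors' deposited table, which called 1, the HIF target Ddit4 (adjusted p = 0.0352, and 0.0352 to 1 over all its alternatives). Counts for enzymes, other pathway genes, sex and the interaction were 0 wherever run. Over all genes, limma called 17, against 7 with no filter on low values, 8 in males only, 0 in females only (502 at an unadjusted p under 0.05) and 116 in the authors' table (52 higher, 64 lower). Leaving out 1 library gave 5 to 16. A replicate block called 11 of all genes and 0 members, with an adjusted p of 0.0601 for Ddit4. No source says that the numbers pair the mice, and they were not treated as pairs because male pair 2 did not pass a correlation of 0.1: deviations of same-numbered libraries correlated at 0.121, 0.0309 and 0.19 for males and 0.157 for both female pairs. With 2 females a diet, deviations from the mean mirror each other, so both female pairs give the same value by construction. As a hint from the data, 7 of 10 libraries correlated best with their own number. The females in that count are not independent matches, for the same reason.

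For 18 members, 396 of 413 alternative log2 fold changes kept their sign and side of the threshold, 16 changed sign and 13 members never did. In females only, Slc16a3 was 0.0164, P4ha1 0.0099, P4ha2 0.1291 and Arnt 0.0094. Arnt was also 0.0104 with median-of-ratios scaling, 0.0124 with quantile normalization, 0.0052 with array weights, 0.0102 with voom and 0.0087 in the authors' table. Epas1 was -0.0052 in males only. Leaving out 1 library, Epas1 ran from -0.0123 to 0.0802, Arnt from -0.055 to 0.0333 and P4ha2 from -0.236 to 0.0631. The causes were not tested. Slc16a3 has no value with a mean TPM of at least 5. Scaling moved the median of all genes by at most 0.0176.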
